A study of Mus musculus with 24 samples.

Results

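The junction genes of endothelium were examined in sorted stromal cells of the mouse intestine by RNA sequencing. They are 10 genes of the 54418 in the count table, taken by symbol from a list chosen with earlier results of these data known. The list holds the adhesion genes Pecam1 and Cdh5, the immunoglobulin-like junction genes Esam, Jam2, Jam3 and F11r, the tight junction membrane genes Cldn5, Cldn11 and Ocln, and the scaffold gene Tjp1. The 24 libraries formed 8 groups of 3. All cells were sorted as Epcam-negative and CD45-negative, from colon or small intestine of C57Bl6-background mice aged 8 to 12 weeks. Each tissue was divided into CD31+Rspo3+, CD31+Rspo3-, CD31-Rspo3+ and CD31-Rspo3- cells, where the Rspo3 sign is that of a GFP transgene that reports Rspo3, the gene of a secreted amplifier of Wnt signalling. The construct of the transgene is not described in the labels. Nor do they tie the libraries of a group to different mice. The p-values below therefore measure the spread between libraries, part of which may be technical.

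Endothelial cells are held together by adherens and tight junctions that share the same cell borders. VE-cadherin, the product of Cdh5, and CD31, the product of Pecam1, bind their own kind on the neighbouring cell, and claudins and junctional adhesion molecules seal the space between cells while scaffold proteins tie them to actin. Blood vessels use these junctions to hold back plasma and to let leukocytes through, and lymphatic capillaries, which run in the core of each villus and beneath the colonic crypts, open and close them to take up fluid and lipid. F11r, Ocln and Tjp1 also serve the junctions of epithelium, and Jam2 and Jam3 are known outside endothelium as well, including in fibroblasts and perivascular cells.

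RefSeq promoter windows of GRCm38.p6 were matched for 5 of the 10 genes (Cldn5, Cldn11, F11r, Ocln and Tjp1), and none was matched for Pecam1, Cdh5, Esam, Jam2 and Jam3. The windows of Cldn5 and F11r are shown, since both transcripts were high in each CD31+ fraction where other members differed. They are the 250 bases before the RefSeq start of Cldn5 at chr16:18776597-18776846 (plus strand) and of F11r at chr1:171437311-171437560 (plus strand). The F11r window runs past the GENCODE start of that gene at 171437535, so its RefSeq and GENCODE starts differ. Capitals mark the GC box, GGGCGG on either strand, which is read here on the minus strand as CCGCCC.
Cldn5: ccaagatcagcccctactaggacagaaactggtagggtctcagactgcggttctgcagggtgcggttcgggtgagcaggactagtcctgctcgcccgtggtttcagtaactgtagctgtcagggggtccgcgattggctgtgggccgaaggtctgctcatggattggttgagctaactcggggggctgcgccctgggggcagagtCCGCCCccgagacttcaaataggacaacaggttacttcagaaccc
F11r: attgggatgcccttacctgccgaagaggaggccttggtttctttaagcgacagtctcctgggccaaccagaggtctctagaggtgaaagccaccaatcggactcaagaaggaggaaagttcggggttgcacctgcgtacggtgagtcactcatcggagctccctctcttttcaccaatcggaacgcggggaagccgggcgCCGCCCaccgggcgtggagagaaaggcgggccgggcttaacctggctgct
The box starts 45 bases before the RefSeq start of Cldn5 and 50 bases before that of F11r, and the windows hold 59.6% and 60.0% G and C. It was present in 4 of the 5 matched genes, Cldn5, F11r, Ocln and Tjp1, against 32.9% of 27025 promoter windows. The TATA box TATAAA was in none of the 5, against 13.0% of all windows. The ETS core CCGGAA was in the Ocln window only, against 12.2%, and none held the ETS core AGGAAG (29.2% of all windows), the forkhead core TGTTTA (12.0%), the SOX core ACAAAG (16.5%) or the E-box CAGCTG (12.8%), on either strand. The ETS cores share the letters GGAA. These are matches of letters in these windows and not measured binding sites.

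In the GENCODE annotation of GRCm38 the 10 protein-coding genes lie on different loci, all read here over whole genes: Pecam1 (ENSMUSG00000020717) at chr11:106654217-106750628 on the minus strand, Cdh5 (ENSMUSG00000031871) at chr8:104101625-104144511 on the plus strand, Esam (ENSMUSG00000001946) at chr9:37528078-37538319 on the plus strand, Cldn5 (ENSMUSG00000041378) at chr16:18776847-18778262 on the plus strand, Cldn11 (ENSMUSG00000037625) at chr3:31149920-31164324 on the plus strand, Jam2 (ENSMUSG00000053062) at chr16:84774123-84825928 on the plus strand, Jam3 (ENSMUSG00000031990) at chr9:27097384-27155421 on the minus strand, F11r (ENSMUSG00000038235) at chr1:171437535-171464603 on the plus strand, Ocln (ENSMUSG00000021638) at chr13:100496507-100552718 on the minus strand and Tjp1 (ENSMUSG00000030516) at chr7:65296165-65527781 on the minus strand.

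Library totals ran from 8462041 to 29214487 estimated counts, and all 10 genes were among the 19050 tested. Levels are given below in TPM, transcripts scaled by length and library size, and differences as log2 fold changes from the counts with edgeR's quasi-likelihood test, Benjamini-Hochberg adjusted over all genes tested, each given ± its standard error with 3 libraries a group. Rspo3 was at 174 to 191 TPM in CD31+Rspo3+ colon against 5.56 to 7.89 in CD31+Rspo3- colon, and the reporter sign and transcript likewise did not overlap in the other 3 pairs. Markers set 2 colon libraries apart (libraries are numbered by column order). Library 3 of the CD31-Rspo3+ colon cells had a summed immune marker level of 6767 TPM, against 488 and 351 TPM in its replicates, and an epithelial sum of 2244 TPM, against 292 and 61.1 TPM. Its fibroblast sum was 18525 TPM, against 39434 and 39264 TPM. Library 3 of the CD31+Rspo3- colon cells had a fibroblast sum of 5452 TPM, against 855 and 1108 TPM in its replicates. Despite the Epcam-negative sort, Epcam itself stood at 3.28 to 134 TPM in CD31-Rspo3+ colon against 107 to 302 TPM in CD31-Rspo3- colon, and at 5.42 to 18.6 TPM in CD31-Rspo3+ small intestine against 502 to 764 TPM in CD31-Rspo3- small intestine.

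Within CD31+ cells, the Rspo3+ fraction carried much less of 3 immunoglobulin-like junction transcripts, Esam, Jam2 and Jam3, and less Pecam1, in both tissues. In the colon, Esam fell 19.3-fold, Jam2 30.7-fold, Jam3 10.3-fold and Pecam1 2.09-fold relative to CD31+Rspo3- cells. Small intestinal falls were 52.6-fold, 90.1-fold, 6.77-fold and 2.69-fold in the same order of genes. Cldn5, Cdh5, F11r and Tjp1 did not pass the test, and no member rose in this fit, though Cldn5 passed as higher under other settings given below. The 4 of 10 members that fell compare with 13.6% of all tested genes that fell in the colon and 10.8% in the small intestine, and the shares of all genes that rose were 9.52% and 9.23%. The median log2 fold change was -0.75 over the members in the colon, against -0.05 over all genes tested, and -0.97 over the members in the small intestine, against 0.00 over all genes tested. In sorted bulk cells, a smaller share of cells of a type and less RNA per cell of that type cannot be told apart.

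**Figure D1:**
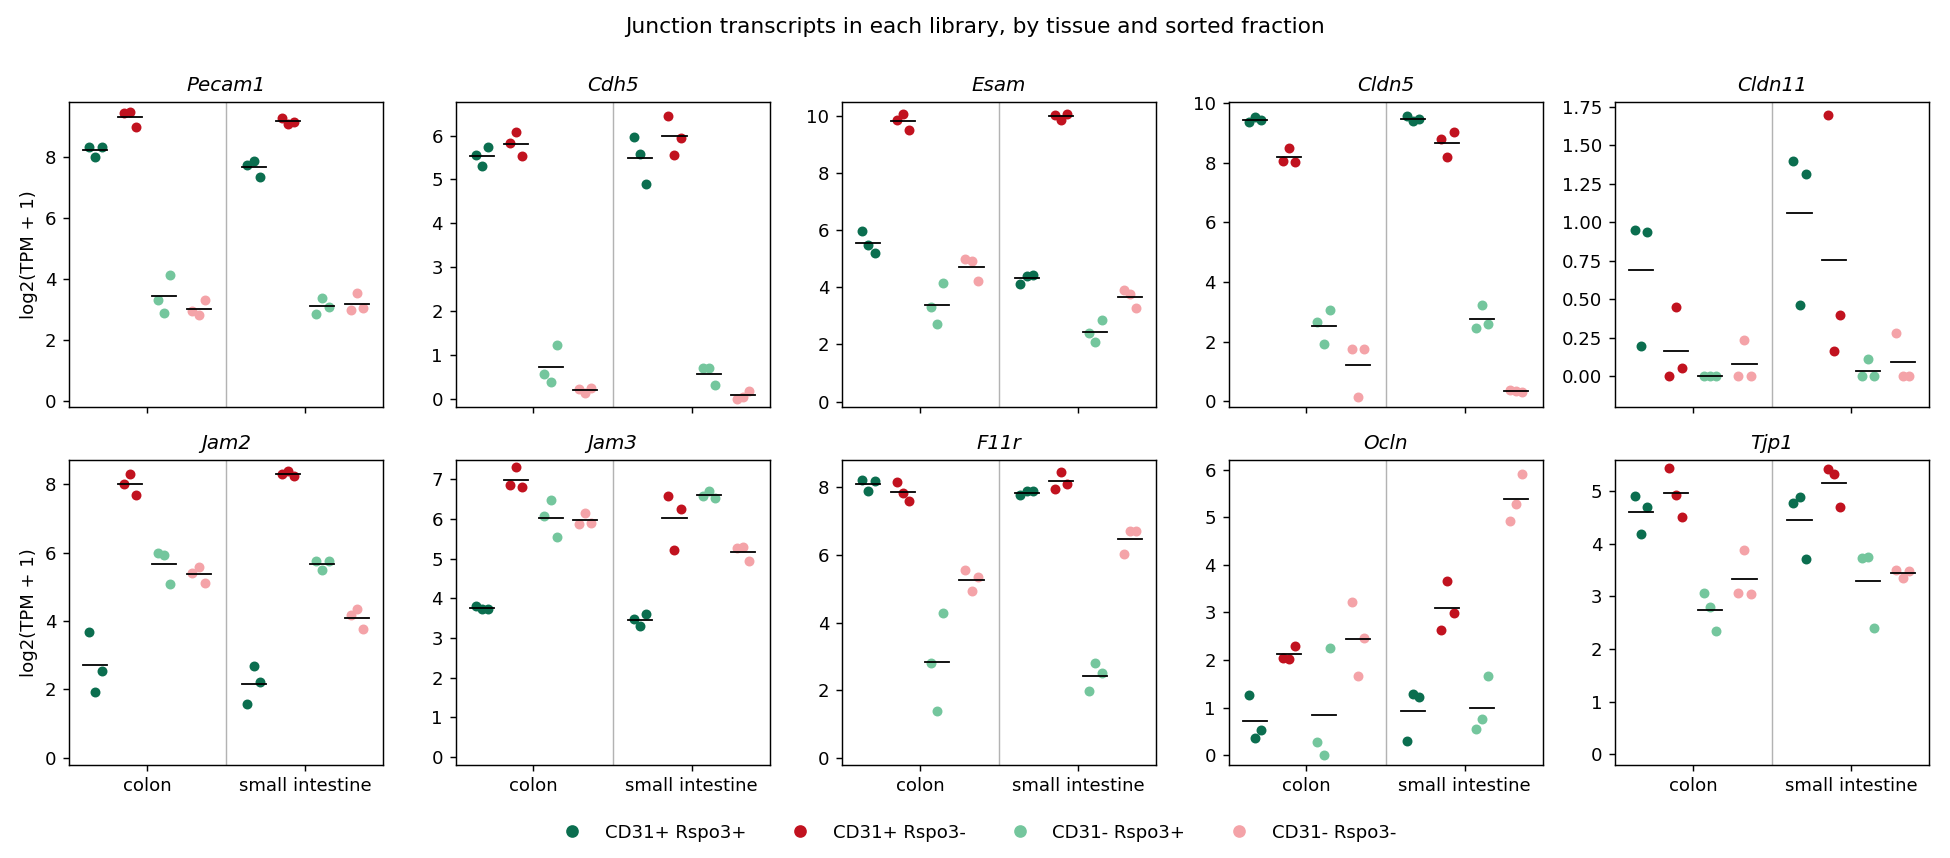
Level of each junction gene as log2(TPM + 1) on the y axis, 1 point per library and a line at the mean of 3, by tissue and sorted fraction on the x axis. Esam, Jam2 and Jam3 are lower in CD31+Rspo3+ than in CD31+Rspo3- libraries of both tissues without overlap, while Cldn5 lies on the higher side in CD31+Rspo3+ cells and F11r overlaps in colon.

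Esam, an adhesion protein of endothelial tight junctions and platelets, stood at 61.2, 43.2 and 36.05 TPM in CD31+Rspo3+ colon against 921, 1064 and 731 TPM in CD31+Rspo3- colon. CD31+Rspo3+ small intestine had 16.4, 19.98 and 20.8 TPM against 1058, 933 and 1085 TPM in CD31+Rspo3- small intestine. No library of the Rspo3+ groups came within a factor of 10 of any library of the Rspo3- groups. The log2 fold change was -4.27 ± 0.37, adjusted p = 6.67e-08 in the colon and -5.72 ± 0.40, adjusted p = 4.32e-09 in the small intestine (edgeR).

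Jam2, a junctional adhesion molecule known for binding leukocyte integrins and the product of Jam3, had the largest log2 fold change of the 10 genes in this comparison in both tissues. It was at 11.8, 2.80 and 4.77 TPM in CD31+Rspo3+ colon against 258, 310.2 and 204 TPM in CD31+Rspo3- colon. In the small intestine it was at 1.97, 5.45 and 3.65 TPM in CD31+Rspo3+ cells against 313, 331 and 301 TPM in CD31+Rspo3- cells. The groups were far apart in both tissues, with 1 colon CD31+Rspo3+ library higher than its replicates. The log2 fold change was -4.94 ± 0.41, adjusted p = 4.01e-08 in the colon and -6.49 ± 0.45, adjusted p = 4.02e-09 in the small intestine (edgeR). Jam3, its binding partner, was at 13.04, 12.3 and 12.2 TPM in CD31+Rspo3+ colon against 115, 156 and 109.8 TPM in CD31+Rspo3- colon. The small intestine had 10.1, 8.90 and 11.1 TPM of Jam3 in CD31+Rspo3+ cells against 94.2, 36.3 and 75.1 TPM in CD31+Rspo3- cells. The Rspo3+ libraries were close to each other and lay below every Rspo3- library. The log2 fold change of Jam3 was -3.37 ± 0.26, adjusted p = 1.37e-08 in the colon and -2.76 ± 0.25, adjusted p = 1.37e-07 in the small intestine (edgeR).

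Pecam1, which encodes the sorted protein CD31, differed within the sorted CD31+ cells. It was at 318, 252 and 320.0 TPM in CD31+Rspo3+ colon against 695, 702 and 496 TPM in CD31+Rspo3- colon. The small intestine had 211, 234 and 162 TPM in CD31+Rspo3+ cells against 618, 542 and 558 TPM in CD31+Rspo3- cells. The groups did not overlap in either tissue. The log2 fold change was -1.06 ± 0.31, adjusted p = 0.0181 in the colon and -1.43 ± 0.32, adjusted p = 0.00256 in the small intestine (edgeR). The colon call did not hold without library 1 or library 2 of either colon group, where the adjusted p was 0.0698 and 0.0652 for the Rspo3+ libraries and 0.0578 and 0.0575 for the Rspo3- libraries. Without library 3 of CD31+Rspo3- colon, whose fibroblast markers stood apart, the same 4 members fell in the colon and none rose.

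Cldn5, the main claudin of endothelial tight junctions, was on the higher side in Rspo3+ cells. It was at 656, 743 and 683 TPM in CD31+Rspo3+ colon against 265, 355 and 260.0 TPM in CD31+Rspo3- colon, and at 752, 669 and 699.6 TPM in CD31+Rspo3+ small intestine against 443, 293 and 516 TPM in CD31+Rspo3- small intestine. The libraries did not overlap in either tissue, yet the differences missed the threshold in edgeR, at 1.28 ± 0.47, adjusted p = 0.0583 in the colon and 0.84 ± 0.47, adjusted p = 0.237 in the small intestine. The colon difference passed in limma voom (adjusted p = 2.03e-04), limma-trend on log2(TPM + 1) (0.0106), DESeq2 (0.0390), edgeR with no filter (0.0395) and edgeR on the 6 libraries compared (0.00173). The small intestinal difference passed in limma voom (0.00793) and on the 6 libraries compared (0.0239), and not in limma-trend (0.117) or DESeq2 (0.253).

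Cdh5, the endothelial cadherin, was at 46.3, 38.7 and 52.3 TPM in CD31+Rspo3+ colon against 55.98, 67.1 and 45.3 TPM in CD31+Rspo3- colon. In the small intestine it was at 61.7, 46.99 and 28.9 TPM in CD31+Rspo3+ cells against 85.9, 46.2 and 60.4 TPM in CD31+Rspo3- cells. Libraries overlapped in both tissues, and the log2 fold changes of -0.27 ± 0.45, adjusted p = 0.721 in the colon and -0.39 ± 0.45, adjusted p = 0.610 in the small intestine did not pass (edgeR). F11r, the third junctional adhesion molecule, which also serves leukocytes, platelets and epithelium, was at 298, 238 and 292 TPM in CD31+Rspo3+ colon against 285, 227 and 194 TPM in CD31+Rspo3- colon. In the small intestine it was at 219.6, 235 and 236 TPM in CD31+Rspo3+ cells against 247, 354 and 275 TPM in CD31+Rspo3- cells. The log2 fold changes of F11r, 0.28 ± 0.52 and -0.20 ± 0.52 in the same order, had standard errors larger than themselves. The libraries overlapped in colon and not in small intestine, and neither difference passed (adjusted p = 0.760 and 0.850, edgeR). F11r thus gave no call where Jam2 and Jam3 fell.

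Tjp1, which encodes the scaffold that links claudins to actin, had 28.9, 17.1 and 24.98 TPM in CD31+Rspo3+ colon against 42.4, 29.4 and 21.6 TPM in CD31+Rspo3- colon, and 26.3, 28.3 and 12.02 TPM in CD31+Rspo3+ small intestine against 41.6, 38.9 and 24.8 TPM in CD31+Rspo3- small intestine. These libraries overlapped, at log2 fold changes of -0.44 ± 0.38, adjusted p = 0.440 and -0.50 ± 0.38, adjusted p = 0.393 (edgeR). Ocln, the tight junction gene best known from epithelium, was low in CD31+ cells, at 1.42, 0.279 and 0.437 TPM in Rspo3+ colon against 3.13, 3.05 and 3.90 TPM in Rspo3- colon, and 0.230, 1.43 and 1.33 TPM in Rspo3+ small intestine against 5.22, 11.6 and 6.96 TPM in Rspo3- small intestine. The libraries did not overlap, and edgeR gave -2.33 ± 1.09, adjusted p = 0.133 in the colon and -2.99 ± 1.11, adjusted p = 0.0639 in the small intestine. The small intestinal difference passed in edgeR with no filter (adjusted p = 0.0369), limma voom (0.0314), limma-trend (0.00383), DESeq2 (0.0395) and on the 6 libraries compared (0.0141), and the colon difference on the 6 libraries compared (0.0258). Cldn11, a claudin of myelin and of the testis, did not exceed 42 counts in any library and no level above 2.24 TPM was seen. In the plain count of separation, 6 of 10 members in the colon and 7 of 10 in the small intestine had TPM values without overlap between CD31+Rspo3+ and CD31+Rspo3- libraries, against 38.4% and 30.4% of all genes tested.

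**Figure D2:**
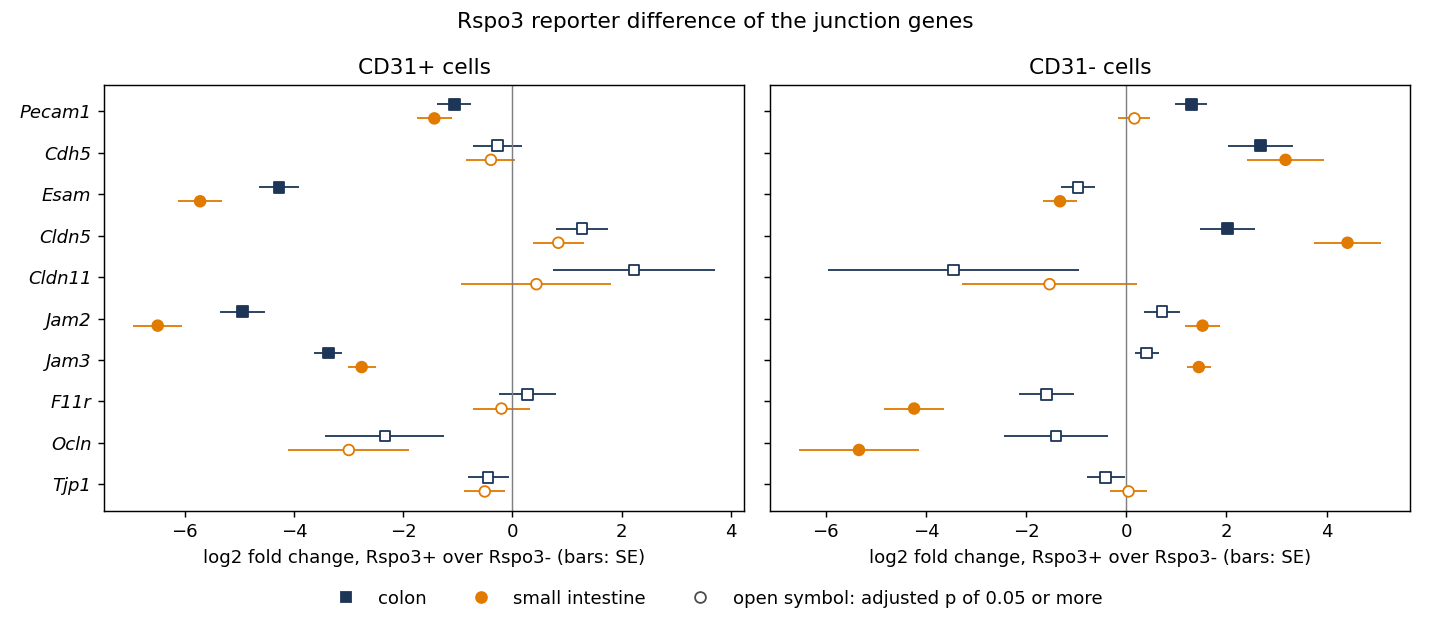
Log2 fold change of Rspo3+ over Rspo3- cells on the x axis with its standard error, for each junction gene on the y axis, in CD31+ cells on the left and CD31- cells on the right. Filled symbols passed an adjusted p of 0.05 in edgeR: Pecam1, Esam, Jam2 and Jam3 are filled and below 0 in CD31+ cells of both tissues.

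Markers of endothelial subtypes moved with these differences. The summed lymphatic markers (15 genes, Prox1 and Lyve1 among them) were 58462 to 70412 TPM in CD31+Rspo3+ colon against 2985 to 3583 TPM in CD31+Rspo3- colon, and 30437 to 32300.1 TPM in CD31+Rspo3+ small intestine against 3082 to 5961 TPM in CD31+Rspo3- small intestine. The summed blood endothelial markers (20 genes, Nrp1 among them) ran the other way, 2412 to 3147 TPM in CD31+Rspo3+ colon against 21377 to 27206 TPM in CD31+Rspo3- colon, and 2626 to 3277 TPM in CD31+Rspo3+ small intestine against 20197 to 23008 TPM in CD31+Rspo3- small intestine. The 16 pan-endothelial markers summed to 5102 to 5315 TPM in CD31+Rspo3+ colon against 5046 to 7112 TPM in CD31+Rspo3- colon, and 5196 to 5551 TPM in CD31+Rspo3+ small intestine against 4749 to 6476 TPM in CD31+Rspo3- small intestine. All 15 lymphatic markers rose in colon and 12 in small intestine, and none fell. Among the 20 blood markers, 14 fell and 1 rose in colon, and 15 fell and 3 rose in small intestine. Among the pan-endothelial markers, 5 fell and 1 rose in colon, and 4 fell and none rose in small intestine. Of 10 pericyte markers, 9 fell and 1 rose in the colon and 8 fell and 2 rose in the small intestine, with sums of 88.01 to 103 TPM in CD31+Rspo3+ colon against 432 to 566 TPM in CD31+Rspo3- colon, and 226 to 276 TPM in CD31+Rspo3+ small intestine against 266 to 449 TPM in CD31+Rspo3- small intestine. Likewise of 12 smooth muscle markers 10 fell in each tissue, with 1 rising in each. These 5 lists hold no member, no marker of theirs was at 0 throughout a CD31+ group, Sox17 is on both the blood and the pan-endothelial list, and their part in the junction differences was not tested.

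The 4 groups of each tissue had different make-ups of junction RNA. The 10 transcripts summed to 1348 to 1436 TPM in CD31+Rspo3+ colon against 2065 to 2915 TPM in CD31+Rspo3- colon, and to 1176 to 1300.4 TPM in CD31+Rspo3+ small intestine against 2586 to 2908 TPM in CD31+Rspo3- small intestine. Cldn5 made up 49.6 ± 4.93% of the sum in CD31+Rspo3+ colon and 11.6 ± 1.38% in CD31+Rspo3- colon, and 56.9 ± 3.06% in CD31+Rspo3+ small intestine and 14.8 ± 3.25% in CD31+Rspo3- small intestine (SD, n = 3 each). Esam took the first place in CD31+Rspo3- cells. Its share was 3.33 ± 0.872% in CD31+Rspo3+ colon and 35.6 ± 0.827% in CD31+Rspo3- colon, and 1.54 ± 0.260% in CD31+Rspo3+ small intestine and 36.6 ± 0.689% in CD31+Rspo3- small intestine. The ratio of Cldn5 to Esam TPM within a library was 10.7 to 18.9 in CD31+Rspo3+ colon against 0.287 to 0.356 in CD31+Rspo3- colon, and 33.5 to 45.9 in CD31+Rspo3+ small intestine against 0.314 to 0.476 in CD31+Rspo3- small intestine. The ratio of F11r to Jam2 was 25.3 to 85.00 in CD31+Rspo3+ colon against 0.732 to 1.11 in CD31+Rspo3- colon, and 43.05 to 112 in CD31+Rspo3+ small intestine against 0.788 to 1.07 in CD31+Rspo3- small intestine. Such a ratio shows unequal change and not which of both genes moved.

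**Figure D3:**
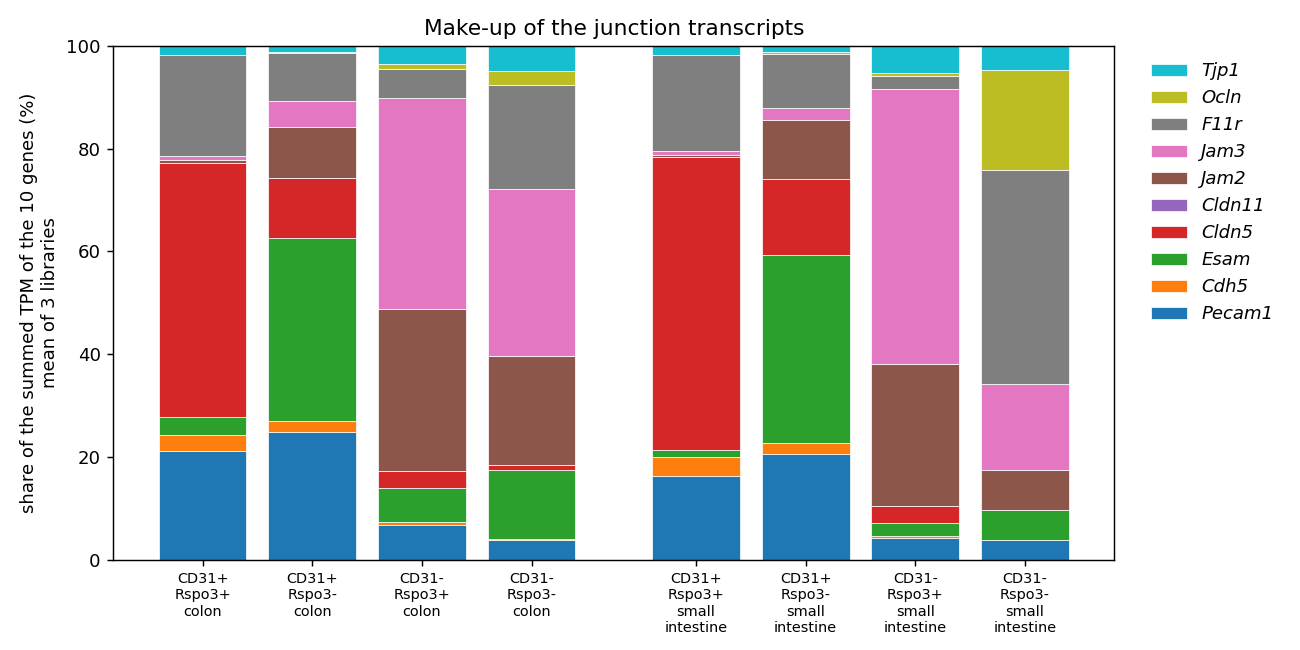
Share of each gene in the summed TPM of the 10 junction genes on the y axis (mean of 3 libraries, bars stacked to 100%), for the 8 sorted groups on the x axis. Cldn5 is the widest band in CD31+Rspo3+ cells, Esam in CD31+Rspo3- cells, Jam3 in CD31-Rspo3+ cells, and F11r in CD31-Rspo3- cells of the small intestine.

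In CD31- cells, the transcripts summed to 146 to 171 TPM in Rspo3+ colon against 173 to 200.2 TPM in Rspo3- colon, and 175 to 187 TPM in Rspo3+ small intestine against 179.9 to 231 TPM in Rspo3- small intestine. In the small intestine Jam2, Jam3, Cdh5 and Cldn5 rose in Rspo3+ cells, and Esam, F11r and Ocln fell. In the colon Pecam1, Cdh5 and Cldn5 rose and none fell in edgeR, but this rested on 1 library. With all libraries, Esam and F11r passed in limma voom, limma-trend and DESeq2, F11r in edgeR with no filter, and Ocln in limma-trend. Mean TPM of these genes was lower in Rspo3+ colon. In edgeR on the compared groups no member passed. The shares of all tested genes that rose and fell were 4.8% and 4.34% in the colon and 16.1% and 14.3% in the small intestine. TPM values did not overlap for 4 of 10 members in the colon and 7 of 10 in the small intestine, against 30.0% and 47.6% of all genes.

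Jam3 was the leading junction transcript of CD31-Rspo3+ cells, with 41.00 ± 10.4% of the sum in colon and 53.4 ± 1.19% in small intestine, and Jam2 followed with 31.6 ± 8.10% and 27.7 ± 3.76%. Jam3 was at 95.3, 103 and 91.7 TPM in CD31-Rspo3+ small intestine against 37.2, 38.4 and 29.8 TPM in CD31-Rspo3- small intestine, without overlap, a log2 fold change of 1.45 ± 0.24, adjusted p = 1.30e-04 (edgeR). Jam2 was at 53.2, 43.8 and 52.7 TPM in the same Rspo3+ cells against 17.1, 19.4 and 12.5 TPM in the Rspo3- cells, a log2 fold change of 1.52 ± 0.36, adjusted p = 0.00287 (edgeR). Both thus differed in the opposite direction from CD31+ cells of this tissue. In the colon Jam3 was at 66.7, 88.4 and 45.4 TPM in CD31-Rspo3+ cells against 57.1, 70.03 and 58.8 TPM in CD31-Rspo3- cells, and Jam2 at 62.4, 59.6 and 32.8 TPM in CD31-Rspo3+ cells against 41.6, 46.6 and 33.4 TPM in CD31-Rspo3- cells. Both pairs overlapped and neither passed, at 0.41 ± 0.24, adjusted p = 0.319 for Jam3 and 0.72 ± 0.35, adjusted p = 0.231 for Jam2 (edgeR). The fibroblast markers (14 genes, Dcn and Pdgfra among them) summed to 39434, 39264 and 18525 TPM in CD31-Rspo3+ colon, where library 3 was the lowest. The sums were 16230.5 to 20065 TPM in CD31-Rspo3- colon. In small intestine they were 54189.8 to 54822 TPM in CD31-Rspo3+ against 7611 to 12158 TPM in CD31-Rspo3- cells. Of the 14, 1 rose in colon, counted with library 3, and 10 rose in small intestine. Their part in the Jam2 and Jam3 levels was not tested.

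Of the 3 members shared with epithelium, F11r and Ocln fell in the small intestine and Tjp1 did not pass the test (0.04 ± 0.38, adjusted p = 0.952, edgeR). F11r was at 2.93, 6.02 and 4.72 TPM in CD31-Rspo3+ small intestine against 64.4, 103 and 103 TPM in CD31-Rspo3- small intestine, a log2 fold change of -4.24 ± 0.60, adjusted p = 2.83e-05 (edgeR). Ocln was at 0.469, 0.706 and 2.19 TPM in CD31-Rspo3+ small intestine against 29.4, 37.9 and 59.5 TPM in CD31-Rspo3- small intestine, a log2 fold change of -5.34 ± 1.19, adjusted p = 0.00186 (edgeR). Neither pair of groups overlapped. The 16 epithelial markers summed to 115 to 397 TPM in those Rspo3+ cells against 10001 to 17619 TPM in those Rspo3- cells, and 13 of the 16 fell and none rose. In the colon F11r was at 5.95, 1.64 and 18.4 TPM in CD31-Rspo3+ cells against 45.9, 29.4 and 39.6 TPM in CD31-Rspo3- cells, and Ocln at 0.212, 0 and 3.75 TPM in CD31-Rspo3+ cells against 8.29, 2.18 and 4.53 TPM in CD31-Rspo3- cells. Library 3 was the highest of the CD31-Rspo3+ libraries for both. The colon log2 fold changes were -1.60 ± 0.54, adjusted p = 0.0734 for F11r and -1.40 ± 1.03, adjusted p = 0.461 for Ocln with that library, and -3.13 (adjusted p = 1.14e-04) and -5.52 (adjusted p = 0.00537) without it (edgeR). The epithelial sum was 61.1 to 2244 TPM in CD31-Rspo3+ colon against 2421 to 8093 TPM in CD31-Rspo3- colon, and its part in the levels of F11r and Ocln was not tested.

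**Figure D4:**
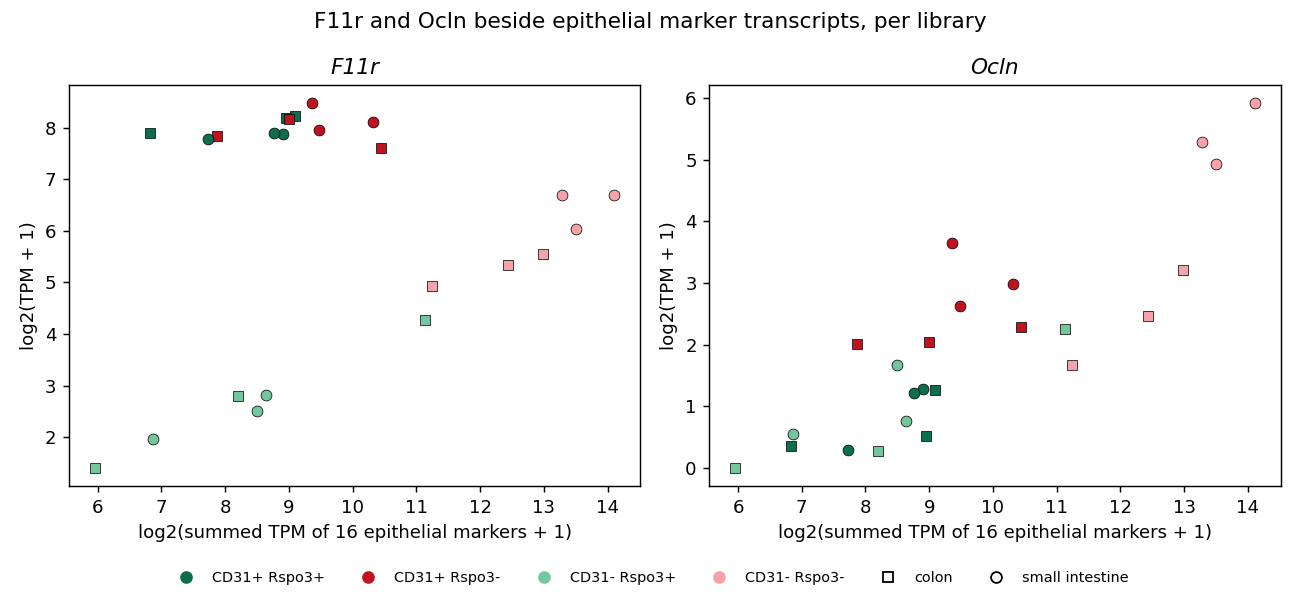
F11r (left) and Ocln (right) as log2(TPM + 1) on the y axis against the log2 summed TPM of 16 epithelial markers on the x axis, 1 point per library, coloured by sorted fraction and shaped by tissue. Among CD31- libraries both genes are high where epithelial markers are high, and among CD31+ libraries F11r lies between 194 and 354 TPM at low marker sums.

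Cdh5 and Cldn5 were low in CD31- cells. Cldn5 was at 4.53, 8.40 and 5.07 TPM in CD31-Rspo3+ small intestine against 0.294, 0.264 and 0.243 TPM in CD31-Rspo3- small intestine, a log2 fold change of 4.42 ± 0.68, adjusted p = 5.84e-05 (edgeR). In the colon it was at 5.25, 2.78 and 7.29 TPM in CD31-Rspo3+ cells against 2.38, 0.0971 and 2.41 TPM in CD31-Rspo3- cells, at 2.02 ± 0.55, adjusted p = 0.0261. Cdh5 was at 0.631, 0.613 and 0.239 TPM in CD31-Rspo3+ small intestine against 0, 0.0290 and 0.128 TPM in CD31-Rspo3- small intestine, at 3.18 ± 0.77, adjusted p = 0.00373, and at 0.463, 0.296 and 1.32 TPM in CD31-Rspo3+ colon against 0.166, 0.0963 and 0.180 TPM in CD31-Rspo3- colon, at 2.68 ± 0.65, adjusted p = 0.0122. All these levels were below 9 TPM. The small intestinal call of Cdh5 was lost in limma-trend on log2(TPM + 1), at an adjusted p of 0.199, and its colon call was lost there as well. Of the 16 pan-endothelial markers, 10 rose and 1 fell in the colon and 11 rose and none fell in the small intestine, with sums of 289.9 to 456 TPM in CD31-Rspo3+ colon against 289 to 449 TPM in CD31-Rspo3- colon, and 399 to 446 TPM in CD31-Rspo3+ small intestine against 196 to 341 TPM in CD31-Rspo3- small intestine. The part of such endothelial RNA in the Cdh5 and Cldn5 levels was not tested.

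Pecam1 in CD31- cells depended on the scale. Its TPM values overlapped in the colon, 8.95, 6.35 and 16.7 in CD31-Rspo3+ against 6.78, 6.11 and 8.92 in CD31-Rspo3- cells. CPM values here are counts scaled by library size times edgeR's TMM scaling factor, and not by length. They were 19.2, 12.9 and 43.9 in CD31-Rspo3+ against 10.2, 8.18 and 12.6 in CD31-Rspo3- cells and did not overlap. The TMM factors were 0.848, 0.841 and 0.993 in CD31-Rspo3+ against 1.07, 1.12 and 1.10 in CD31-Rspo3- colon. CPM without these factors was not compared. The count test called it higher, at 1.297 ± 0.32, adjusted p = 0.0147 (edgeR), and limma-trend on log2(TPM + 1) did not (adjusted p = 0.281). With all libraries, 9 of 12 immune markers rose in this comparison. Their sums were 488, 351 and 6767 TPM in CD31-Rspo3+ colon against 392, 410 and 933 TPM in CD31-Rspo3- colon. Without library 3 of CD31-Rspo3+ colon, the adjusted p in edgeR was 0.119 for Pecam1, 0.137 for Cdh5 and 0.102 for Cldn5. No member then rose in the colon, and Esam, F11r and Ocln fell. On the 6 libraries compared alone, edgeR gave 0.179 for Pecam1, 0.108 for Cdh5 and 0.310 for Cldn5, and limma voom gave 0.203 for Cdh5. Some of the 3 colon calls were also lost without 1 other library. Pecam1 was lost without CD31-Rspo3- library 1 (adjusted p = 0.0535) or library 2 (0.0793), Cdh5 without CD31-Rspo3- library 2 (0.0701) and Cldn5 without CD31-Rspo3+ library 1 (0.0536).

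Esam fell in CD31-Rspo3+ small intestine, at 4.30, 3.25 and 6.28 TPM against 14.04, 12.7 and 8.60 TPM in CD31-Rspo3- small intestine, a log2 fold change of -1.32 ± 0.34, adjusted p = 0.00574 (edgeR). In the colon it was at 8.97, 5.52 and 16.8 TPM in CD31-Rspo3+ cells against 30.8, 29.6 and 17.9 TPM in CD31-Rspo3- cells, which did not overlap, at -0.96 ± 0.33, adjusted p = 0.0790 with all libraries and an adjusted p of 0.00126 without library 3 of CD31-Rspo3+ colon. Tjp1 was at 7.34, 5.97 and 4.04 TPM in CD31-Rspo3+ colon against 7.33, 13.8 and 7.28 TPM in CD31-Rspo3- colon, and at 12.3, 12.5 and 4.27 TPM in CD31-Rspo3+ small intestine against 10.3, 9.17 and 10.1 TPM in CD31-Rspo3- small intestine, and did not pass in either. Cldn11 had at most 0.216 TPM in a CD31- library. Markers of contractile and glial cells also differed here: 12 of 12 smooth muscle, 8 of 10 pericyte and 7 of 9 enteric glia markers fell in Rspo3+ colon, and none, 6 and 8 of the same lists fell in Rspo3+ small intestine. Their part in the Esam difference was not tested.

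Between CD31+ and CD31- cells of the same reporter sign, Cdh5, Cldn5, Esam, F11r and Tjp1 rose in all 4 comparisons, with Pecam1, whose rise only checks the sort. The members that rose were 7 of 10 in Rspo3+ colon (background 14.9%), 8 in Rspo3- colon (16.1%), 7 in Rspo3+ small intestine (16.9%) and 8 in Rspo3- small intestine (20.1%). Each of these counts includes Pecam1, whose rise follows from the CD31 gate and is not a finding. Jam2 and Jam3 depended on the reporter sign. In Rspo3+ cells they fell in CD31+ relative to CD31- cells, Jam2 at -3.02 ± 0.38 and Jam3 at -2.67 ± 0.25 in colon, and -4.05 ± 0.40 and -3.53 ± 0.26 in small intestine (background of falls 18.2% and 19.6%). In Rspo3- cells both rose, Jam2 by 2.64 ± 0.37 and Jam3 by 1.11 ± 0.24 in colon, and 3.96 ± 0.39 and 0.68 ± 0.24 in small intestine, where the Jam3 call was not stable.

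Cldn5 differed between CD31+ and CD31- cells by 6.81 ± 0.61, adjusted p = 4.29e-08 in Rspo3+ colon, 7.55 ± 0.64, adjusted p = 2.75e-08 in Rspo3- colon, 6.68 ± 0.60, adjusted p = 2.96e-08 in Rspo3+ small intestine and 10.26 ± 0.75, adjusted p = 2.77e-09 in Rspo3- small intestine (edgeR). For Cdh5 the log2 fold changes were 5.66 ± 0.57, 8.62 ± 0.67, 6.26 ± 0.58 and 9.83 ± 0.74 in the same order. Ocln fell in CD31+Rspo3- relative to CD31-Rspo3- small intestine, at -2.74 ± 1.05, adjusted p = 0.0425 (background 21.6%), and passed in none of the other 3. Cldn11 rose in both Rspo3+ comparisons, with 40 summed counts in CD31+Rspo3+ colon against 0 in CD31-Rspo3+ colon, at least 10.9-fold higher when 3 counts over the group stand for 0. This call was lost without any library except CD31+ library 2 (adjusted p up to 0.0814) and, in small intestine, without library 1 or 3 of either group (up to 0.110). The Tjp1 call in Rspo3+ small intestine, 0.98 ± 0.38, adjusted p = 0.0497, was lost without CD31+ library 1 or 2 or CD31- library 1 or 3 (up to 0.145, edgeR). In Rspo3- small intestine, 3 calls were lost without single libraries. Ocln lost its call without any 1 of the 6 libraries (adjusted p 0.0527 to 0.136) and F11r likewise (0.0569 to 0.164), while Jam3 lost it without CD31+ library 1 or 3 or any CD31- library (0.0633 to 0.266), with no filter (0.0561), in limma voom (0.0603) and on the compared groups (0.122). Its libraries overlapped, at 94.2, 36.3 and 75.1 TPM in CD31+Rspo3- against 37.2, 38.4 and 29.8 TPM in CD31-Rspo3- small intestine. F11r also lost its call with RLE size factors (0.0733) and a stricter filter (0.0544), Tjp1 in Rspo3+ small intestine on the compared groups (0.115), and Cldn11 in Rspo3+ colon in limma-trend (0.0829).

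Between tissues, few members differed. In CD31+Rspo3+ cells, Esam rose in colon relative to small intestine by 1.37 ± 0.34, adjusted p = 0.0167, and Jam2 by 1.35 ± 0.37, adjusted p = 0.0335, against 2.83% of all genes that rose (edgeR). In CD31+Rspo3- cells Jam3 rose by 1.01 ± 0.24, adjusted p = 0.0158 (background 2.72%). In CD31-Rspo3+ cells Esam rose by 1.24 ± 0.34, adjusted p = 0.0332 (background 3.62%), and in CD31-Rspo3- cells Cldn5 rose by 2.30 ± 0.73, adjusted p = 0.0330 and Jam2 by 1.12 ± 0.36, adjusted p = 0.0334 while Ocln fell, at -3.35 ± 1.08 (adjusted p = 0.0365), against 8.79% and 8.81% of all genes that rose and fell. Each of these 7 calls was lost without at least 1 library: Esam in CD31+Rspo3+ cells without small intestinal library 1 or 2 or colon library 1 (adjusted p up to 0.0842), Jam2 there without small intestinal library 1 or 3 or colon library 1 (up to 0.293), Jam3 without colon library 2 (0.0761), and Esam in CD31-Rspo3+ cells without small intestinal library 1 or 2 or colon library 3 (up to 0.362). In CD31-Rspo3- cells, Jam2 lost its call without any 1 of the 6 libraries (up to 0.117), Cldn5 without any except colon library 2 (up to 0.160), and Ocln without any except small intestinal library 1 (up to 0.141). Other settings ended 5 of the 7. On the compared groups, Jam2 in CD31+Rspo3+ cells (0.190), Jam3 (0.213) and Esam in CD31-Rspo3+ cells (0.183) were lost. Limma voom ended Cldn5 (0.575), and RLE size factors ended Jam2 in CD31-Rspo3- cells (0.0527). Limma voom and limma-trend also ended Jam2 in CD31+Rspo3+ cells and Esam in CD31-Rspo3+ cells. Cldn5 was also lost in limma-trend and on the compared groups, and Jam2 in CD31-Rspo3- cells with the stricter filter.

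Whether the reporter difference itself depended on tissue or on CD31 was tested as an interaction. In CD31+ cells 0 of 10 members differed between colon and small intestine (background 1.93%), with 2 (Esam and Jam2) at an unadjusted p under 0.05, and limma voom, DESeq2 and edgeR on the compared groups called 1 each. In CD31- cells 1 member did, F11r at 2.64 ± 0.77, adjusted p = 0.0383 (background of rises 4.91%), and its adjusted p was 0.288 without library 3 of CD31-Rspo3+ colon. Each of 6 other single libraries, when left out, also ended this call, and it was lost in limma voom (0.0767), limma-trend (0.0763) and on the compared groups (0.115). Between the CD31 gates, the reporter difference was more negative in CD31+ than in CD31- cells for Pecam1, Cdh5, Esam, Jam2 and Jam3 in both tissues (background 10.4% in colon and 13.1% in small intestine) and for Cldn5 in small intestine. F11r went the other way in small intestine (background 11.1%). In colon F11r did not pass in edgeR with all libraries, at an unadjusted p under 0.05. It passed there in limma voom and limma-trend, and as higher in edgeR without library 3 of CD31-Rspo3+ colon. For Cdh5 in both tissues and Cldn5 in small intestine, the change in CD31+ cells did not pass, and the change in CD31- cells was a rise from few counts. Cdh5 had 7, 6 and 10 counts in CD31-Rspo3- colon and 0, 1 and 8 in CD31-Rspo3- small intestine. Cldn5 had 8, 3 and 5 counts in CD31-Rspo3- small intestine. The Jam2 difference was -5.66 ± 0.53, adjusted p = 3.58e-07 in colon and -8.02 ± 0.56, adjusted p = 7.40e-09 in small intestine (edgeR). The Cdh5 call in colon was lost without CD31-Rspo3+ library 3 (adjusted p = 0.0987) or CD31-Rspo3- library 2 (0.0541), in limma voom (0.131) and in limma-trend (0.158), and that in small intestine in limma-trend (0.0661).

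Other junction genes were read from 5 lists. Of 17 adherens junction genes, 3 rose and 7 fell in CD31+Rspo3+ colon, and 5 rose and 7 fell in CD31+Rspo3+ small intestine, against the shares of all genes given above. The nectin gene Nectin2 rose to 253 TPM in CD31+Rspo3+ colon against 74.4 in CD31+Rspo3- colon, and to 475 TPM in CD31+Rspo3+ small intestine against 122 TPM in CD31+Rspo3- small intestine, at log2 fold changes of 1.83 ± 0.29, adjusted p = 9.49e-05 and 2.04 ± 0.29, adjusted p = 3.51e-05 (edgeR). Jup, which encodes plakoglobin, the catenin shared by cadherin and desmosomal junctions, also rose, at 1.36 ± 0.19, adjusted p = 1.61e-05 in colon and 1.20 ± 0.19, adjusted p = 7.12e-05 in small intestine. Pcdh17, a protocadherin gene, and Pvr, the gene of a nectin-like receptor, fell in both tissues, and the cadherin gene Cdh13 fell to 1.48 TPM in CD31+Rspo3+ small intestine against 102 TPM in CD31+Rspo3- small intestine. The list therefore held genes that moved in both directions, with a median log2 fold change of -0.38 in colon and 0.04 in small intestine. Medians were 0.17 and 0.33 for the scaffolds, -0.84 in each tissue for the other claudins, -0.52 and -0.54 for the receptors and -0.99 and -0.32 for the connexins described next.

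Of 16 tight junction scaffold genes, 3 rose and none fell in CD31+Rspo3+ cells of each tissue: Pard6g, Magi3 and Pard3. Pard6g, a polarity scaffold, had 437 TPM in CD31+Rspo3+ colon against 28.1 TPM in CD31+Rspo3- colon, and 454 TPM in CD31+Rspo3+ small intestine against 68.9 TPM in CD31+Rspo3- small intestine, at 3.99 ± 0.30, adjusted p = 1.15e-08 and 2.81 ± 0.28, adjusted p = 4.31e-07 (edgeR). Of 24 other claudin and claudin-like genes 13 were tested, and none rose and 3 fell in each tissue. Tmem47, a claudin-like membrane gene, fell, at -2.54 ± 0.20, adjusted p = 1.48e-08 in colon and -3.06 ± 0.20, adjusted p = 2.47e-09 in small intestine, and Cldn12 at -1.36 ± 0.22, adjusted p = 1.37e-04 and -1.24 ± 0.22, adjusted p = 3.94e-04. Of 13 other immunoglobulin-like receptor genes tested, 1 rose in each tissue (Cd47), and 3 fell in colon and 2 in small intestine, with Mcam, also on the pericyte list, changing by -2.31 ± 0.35, adjusted p = 5.76e-05 and -3.80 ± 0.38, adjusted p = 3.67e-07.

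Among 12 connexin and pannexin genes tested, which form gap junctions and related channels, 1 rose and 3 fell in CD31+Rspo3+ colon, and 3 rose and 4 fell in CD31+Rspo3+ small intestine. Gja5, a connexin gene known for arterial endothelium, was at 0.816 TPM in CD31+Rspo3+ colon against 55.6 TPM in CD31+Rspo3- colon, and 0.249 TPM in CD31+Rspo3+ small intestine against 146 TPM in CD31+Rspo3- small intestine, at -6.15 ± 0.64, adjusted p = 5.84e-07 and -8.88 ± 0.74, adjusted p = 3.47e-08 (edgeR). Connexin genes moved in both directions. Of all tested genes, 9.52% rose and 13.6% fell in CD31+Rspo3+ colon, and 9.23% rose and 10.8% fell in CD31+Rspo3+ small intestine. The same shares apply to the scaffold, claudin and receptor counts above.

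In CD31- cells of the small intestine, where 16.1% of all genes rose and 14.3% fell in the Rspo3+ fraction, the counts were 2 of 17 adherens genes rising and 7 falling, 4 of 16 scaffolds rising and 8 falling, 2 of 13 other claudins rising and 5 falling, 3 of 13 receptors rising and 6 falling, and no connexin of 12 rising and 5 falling. The claudins Cldn7, Cldn3 and Cldn15, known for intestinal epithelium, were among the falls, Cldn7 being at 13.2 TPM in CD31-Rspo3+ against 625 TPM in CD31-Rspo3- small intestine, beside the epithelial marker sums given above. Cldn10 rose instead, to 29.2 TPM in CD31-Rspo3+ colon against 2.04 TPM in CD31-Rspo3- colon, and to 104 TPM in CD31-Rspo3+ small intestine against 2.43 TPM in CD31-Rspo3- small intestine, at 3.98 ± 0.70, adjusted p = 9.81e-04 and 5.39 ± 0.74, adjusted p = 1.89e-05 (edgeR). In CD31- colon, where 4.8% of all genes rose and 4.34% fell, the counts of rises and falls were 2 and 3 for adherens genes, 1 and 1 for scaffolds, 1 and 0 for other claudins, 3 and 3 for receptors and 0 and 2 for connexins. These counts include library 3 of CD31-Rspo3+ colon, which stood apart, and were not computed without it.

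The genes whose pattern was most like each member were ranked by Pearson's r of log2(CPM + 1) over the 24 libraries among 9795 genes, as a description over libraries that share their sorts. Cdh5 ran closest to Myct1 (r = 0.995), Rasgrp3 and Cd300lg, Cldn5 to Tie1 (r = 0.991), Gpihbp1 and Mmrn2, and Pecam1 to Gata2 (r = 0.991), Prkch and Pkn3. Esam was closest to Tmem255b (r = 0.979), Dhh and Apbb2, Jam2 to Lims2 (r = 0.981), Rrad and Eogt, and Jam3 to Igfbp7 (r = 0.986), Dlc1 and Emp2. F11r was closest to Smagp (r = 0.980), Mall and Clic5, Ocln to Degs2 (r = 0.958), Atg4d and Slc9a3r1, and Tjp1 to Osmr (r = 0.914), Itsn2 and Sptan1. Cldn11, with its few counts, reached r = 0.819 with Zgpat. Cdh5 and Jam3 overlap antisense genes, and Jam2 and Tjp1 other small annotations, and the library method does not mark strand, so reads of each pair cannot be told apart beyond the transcript model. The overlapping gene with the most counts, Gm48796 antisense to Jam3, reached at most 48 counts and at most 1.03 TPM over all libraries. The lowest Jam3 count of any library was 96, and whether both values came from the same library was not compared. Gm44792 at Tjp1 reached 22 counts, and the others at most 1.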

How the data were processed

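RNA was extracted with a Qiagen kit and amplified with SMART-Seq v4 chemistry, per the labels' protocols; that chemistry does not mark strand. The authors deposited estimated counts per gene as whole numbers. The deposited log2 values were read as log2(TPM + 1), since they return to 1000000 TPM in each library, and were turned back to TPM for levels. Salmon 1.3.0, R 4.0.1 and the mm10 build are named in the submitters' processing notes. Library totals ran from 8462041 to 29214487 counts, and 99.4% of identifiers matched the annotation. All 24 libraries entered 1 edgeR 4.0.16 quasi-likelihood fit in R 4.3.3, with TMM scaling and filterByExpr (minimum count 10, total 15), which left 19050 genes (common biological coefficient of variation 0.429). The threshold was an adjusted p of 0.05 (Benjamini-Hochberg). Replicates correlated at r of 0.938 to 0.986, and no pair agreed within sampling noise. The fit was also run on counts simulated from its own group means and dispersions, with known changes in 1 comparison, Rspo3 in CD31+ small intestine. Such counts cannot show whether the fit suits these libraries. Alternatives were RLE size factors, other filters, limma 3.58.1 (voom, and trend on TPM), DESeq2 1.42.0, the compared groups only, and leaving out each library. Members are all named; other junction genes are named by the smallest adjusted p, up to 3 a direction and list. Members and lists were chosen with earlier results of these data known. The values of 1 gene that the naming rule would include are not reported here.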

Additional observations from a re-analysis of the deposited data

Results flagged for a closer look

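The 13 results below differ between groups of samples by a test of the difference itself (an interaction term, edgeR's quasi-likelihood test, Benjamini-Hochberg adjusted, 3 libraries a group). The difference between tissues of the Rspo3+ over Rspo3- change in CD31- cells, colon minus small intestine, was 2.64 ± 0.77, adjusted p = 0.0383 for F11r. It did not pass without library 3 of CD31-Rspo3+ colon (adjusted p = 0.288), in limma voom (0.0767), limma-trend (0.0763) and on the compared groups (0.115).

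The difference between gates of the same change, CD31+ minus CD31-, was tested within each tissue. In the colon it was -2.36 ± 0.45, adjusted p = 8.54e-04 for Pecam1, -2.96 ± 0.79, adjusted p = 0.0129 for Cdh5, -3.31 ± 0.48, adjusted p = 4.52e-05 for Esam, -5.66 ± 0.53, adjusted p = 3.58e-07 for Jam2 and -3.78 ± 0.34, adjusted p = 2.66e-07 for Jam3. In the small intestine it was -1.59 ± 0.45, adjusted p = 0.0133 for Pecam1, -3.57 ± 0.90, adjusted p = 0.00646 for Cdh5, -4.39 ± 0.49, adjusted p = 1.89e-06 for Esam, -3.58 ± 0.83, adjusted p = 0.00340 for Cldn5, -8.02 ± 0.56, adjusted p = 7.40e-09 for Jam2 and -4.21 ± 0.35, adjusted p = 4.45e-08 for Jam3. F11r had the opposite sign there, at 4.04 ± 0.78, adjusted p = 6.90e-04. In colon F11r passed in limma voom, in limma-trend and, as higher, in edgeR without library 3 of CD31-Rspo3+ colon, but not in edgeR with all libraries. The Cdh5 difference did not pass in limma-trend in either tissue (adjusted p = 0.158 in colon and 0.0661 in small intestine) or in limma voom in colon (0.131). Neither Cdh5 nor small intestinal Cldn5 passed within CD31+ cells. In these comparisons each had 10 counts or fewer in every CD31-Rspo3- library.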

How the results depend on the processing

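Of 160 member results, 73 passed, 52 of them under every alternative run, and 21 were lost under at least 1 of 31 settings (24 that leave out a library and 7 others). Of the 87 that did not pass, 22 passed somewhere. F11r between tissues in CD31-Rspo3+ cells (log2 fold change 1.15) ranged from -0.38 to 1.74 when 1 library was left out, and Ocln in the tissue difference of CD31- cells (3.93) from -0.19 to 5.28; the cause was not tested. Counts of members that passed moved as follows. For Rspo3 in CD31- colon, 3 became 5 in DESeq2, 0 on the compared groups and 1 to 3 without 1 library. Between tissues, CD31+Rspo3+ cells had 2, against 1 in limma voom and in limma-trend and 0 to 2 without 1 library. CD31+Rspo3- cells had 1, against 0 on the compared groups and 0 to 1 without 1 library, and CD31-Rspo3+ cells had 1, against 0 in limma voom, limma-trend and the compared groups and 0 to 3. CD31-Rspo3- cells had 3, against 5 in limma-trend and on the compared groups and 0 to 1. The tissue difference had 0 in CD31+ cells, against 1 in limma voom, DESeq2 and the compared groups and 0 to 1, and 1 in CD31- cells (F11r), against 2 in limma-trend (Jam3 and Ocln, not F11r), 4 in DESeq2 (F11r among them) and 0 to 4; limma voom and the compared groups called Jam3 in its place. For Rspo3 in CD31+ cells, 4 in each tissue became 5 with no filter, in limma-trend and in DESeq2, and 6 on the compared groups. Limma voom gave 5 in colon and 6 in small intestine. The added members were Cldn5, on the higher side, and Ocln, on the lower side. Without 1 library, the same comparison gave 3 to 4 in colon and 4 in small intestine. RLE size factors shifted the members' median log2 fold change by up to 0.13. No paired analysis was possible because the columns carry no replicate number from the labels, and column order was not used to pair libraries. Cldn11, at 42 counts or fewer in every library, is the member whose values rest on the fewest counts.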
